A study of Mus musculus with 9 samples.

Results

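Left ventricle miRNAs were compared between 2 lines of transgenic mice, CaNrf2-High (TG-High) and CaNrf2-Low (TG-Low), with raw counts of mature miRNAs from 3 libraries of each line. These 6 libraries are all that the labels give for the lines, out of 9 in the series, and the other 3 come from non-transgenic mice (NTG), which are given beside them for reference. Every library was made from total RNA of the left ventricle of male mice on the C57BL/6J background at 6 months of age, and no further treatment is named. The labels give the lines only as Low and High. They do not give the construct, the promoter that drives the transgene, the cells that carry it or whether a library is 1 animal, and the level of Nrf2 itself was not analysed here. Nothing in the labels says that the libraries of a group came from separate animals, so each p-value speaks of the spread among these libraries alone, and that spread may be technical.

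Nrf2 is the transcription factor made from Nfe2l2. Keap1 holds it back, and once released it switches on genes of antioxidant defence and glutathione synthesis. A miRNA is cut from a hairpin precursor, and either strand of the hairpin (the 5p or the 3p arm) can be loaded into the silencing complex, where its seed, bases 2 to 8, pairs with target transcripts. A comparison of lines named Low and High asks which miRNAs differ between them. In the heart, a few miRNAs are known by their source: miR-208a, miR-208b and miR-499 are encoded inside myosin heavy chain genes, miR-144 and miR-451a are made in red blood cells and their precursors, miR-150 is a miRNA of mature lymphocytes, and miR-21 is induced in stressed hearts, largely in fibroblasts.

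The difference between the lines was narrow. miR-21a-5p was higher in TG-High than in TG-Low, and miR-150-5p, miR-144-3p, miR-451a, miR-499-5p and both arms of miR-335 were lower. These 7 of 509 tested miRNAs (1.38%) had a p below 0.05 in the quasi-likelihood test of edgeR after adjustment by Benjamini and Hochberg, 1 higher (0.196% of those tested) and 6 lower (1.18%). The mature sequences of those with an entry in RefSeq (build GRCm38.p6) are given because their seeds fix which transcripts they can pair with. Seeds are in capitals, and miR-21a-3p, miR-144-5p, miR-208a-3p and miR-208b-3p are shown for comparison with the other arm or with a relative.
miR-21a-5p: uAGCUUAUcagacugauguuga
miR-21a-3p: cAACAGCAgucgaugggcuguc
miR-144-3p: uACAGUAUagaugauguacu
miR-144-5p: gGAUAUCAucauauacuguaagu
miR-451a: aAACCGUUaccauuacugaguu
miR-335-5p: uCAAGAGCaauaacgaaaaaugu
miR-335-3p: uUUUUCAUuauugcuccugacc
miR-499-5p: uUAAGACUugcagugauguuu
miR-208a-3p: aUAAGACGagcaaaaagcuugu
miR-208b-3p: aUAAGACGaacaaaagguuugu
None of the 6 passing miRNAs printed here shared its seed with another tested row, among the 446 tested rows matched to a mature sequence. The myosin miRNAs miR-208a-3p and miR-208b-3p share the seed UAAGACG, while miR-499-5p has UAAGACU.

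Total counts over the 621 rows of the table ran from 8.12 M to 8.66 M in TG-Low and from 3.62 M to 11.7 M in TG-High, and in NTG from 7.17 M to 10.1 M, where M stands for 1e6. Depth was lowest in TG-High replicate 2 and highest in TG-High replicate 1. Levels are counts per 1e6 (CPM) with trimmed mean of M values scaling. Replicates of TG-High lay closer together than those of the other groups, with a median coefficient of variation of 9.10% over rows with a mean of at least 100 CPM, against 12.1% in TG-Low and 13.5% in NTG. Heart muscle miRNAs were present in all groups, with miR-208a-3p at 2376 to 2973 CPM. The rows of miR-1a-3p (54.4 to 166 CPM) and miR-133a-3p (0.407 to 3.83 CPM) were low for defining heart muscle miRNAs. Each comes from more than 1 hairpin gene, and the sources used here do not give how reads that match several hairpins were assigned. Other rows were also low: miR-26a-5p, miR-30c-5p and miR-29b-3p had at most 58, 31 and 16 counts in any library. These rows enter medians of the lists below. miR-199a-3p, which also comes from more than 1 hairpin gene, had means of 23.0 CPM in TG-High and 16.4 CPM in TG-Low.

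Over all 509 tested rows the log2 fold change of TG-High over TG-Low had a median of -0.02, and its quartiles were -0.21 and 0.18. At an unadjusted p under 0.05 there were 41 rows (8.06%), 17 higher and 24 lower. The 3 libraries of TG-High lay wholly above or wholly below those of TG-Low in 80 rows (15.7%), 34 above (6.68%) and 46 below (9.04%), and the 7 that passed were among them. Only 3 of the 14 rows with a change of at least 1 on the log2 scale passed, and the smallest change that passed was -0.65 (miR-499-5p). The median standard error was 0.15 for the 150 rows with a mean of at least 100 CPM and 0.36 for the 221 rows under 10 CPM, and the median half-width of the 95% interval was 0.54, so that most changes under about that size could not be told from 0 at this depth and replication.

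**Figure D1:**
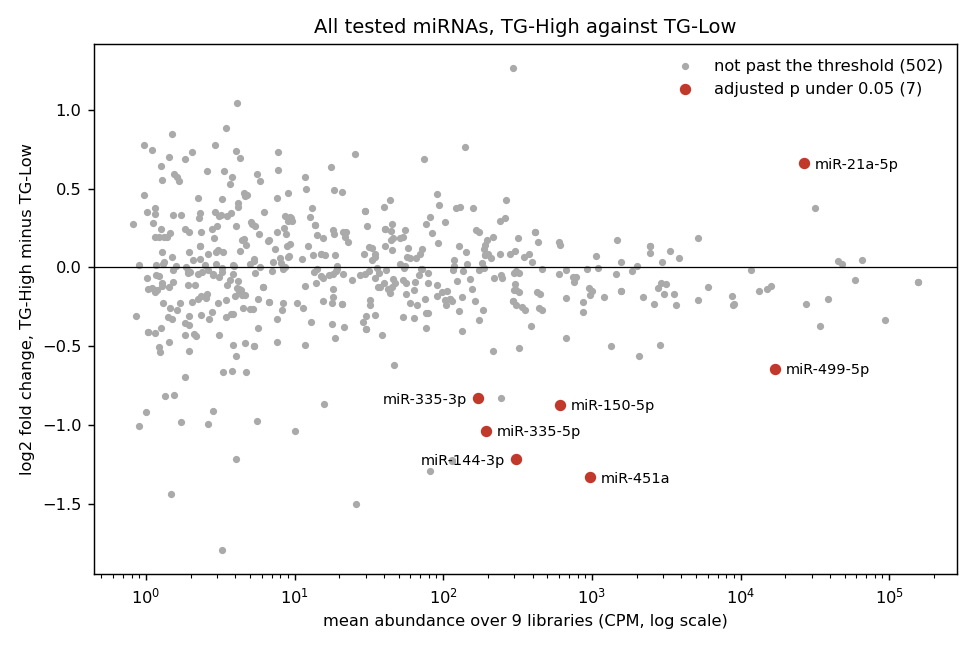
Log2 fold change of TG-High over TG-Low (vertical) against mean abundance in CPM over 9 libraries (horizontal, log scale) for the 509 tested miRNAs. The 7 that passed an adjusted p of 0.05 are red and named: miR-21a-5p lies above 0 and the other 6 lie below it, while the grey points spread more widely at low abundance.

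miR-21a-5p, an abundant miRNA whose hairpin lies over an exon of Vmp1, rose between the lines. It stood at 38597, 40591 and 34033 CPM in TG-High replicates 0, 1 and 2, at 25570, 21969 and 23965 CPM in TG-Low and at 18180, 20728 and 17947 CPM in NTG. All TG-High libraries lay above all TG-Low libraries, and these in turn above all NTG libraries. The level was 1.58-fold higher in TG-High than in TG-Low, a log2 fold change of 0.66 ± 0.11 (SE, n = 3 per line, 95% interval 0.42 to 0.90, edgeR adjusted p = 0.0206). Its partner arm miR-21a-3p, present at 5.74 to 7.01 CPM in TG-High and 1.83 to 4.18 CPM in TG-Low, had a log2 fold change of 1.05 ± 0.33 that did not pass (edgeR adjusted p = 0.256). The hairpin lies on chromosome 11 of GRCm38 from 86584067 to 86584158, on the minus strand.

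The pair of erythroid hairpins miR-144 and miR-451a was lower in TG-High. They lie on the plus strand of chromosome 11, from 78073005 to 78073070 and from 78073170 to 78073241, with 99 bases between them. Leaving miRNA genes aside, no annotated gene of GENCODE M21 overlaps them. miR-451a, which is processed by Argonaute 2 without Dicer, had 361.1, 445 and 426 CPM in TG-High, 664, 1241 and 1195 CPM in TG-Low and 1492, 1040 and 1841 CPM in NTG. It was 2.52-fold lower in TG-High than in TG-Low, with a log2 fold change of -1.33 ± 0.25 (SE, 95% interval -1.89 to -0.78, edgeR adjusted p = 0.0254). miR-144-3p, at 131, 161 and 153 CPM in TG-High, 219, 451 and 368 CPM in TG-Low and 454, 405 and 421 CPM in NTG, was 2.33-fold lower (-1.22 ± 0.22, edgeR adjusted p = 0.0254). For both, TG-Low replicate 0 was the lowest TG-Low library and still lay above every TG-High library, and the TG-Low and NTG libraries overlapped. miR-144-5p had 23.3, 37.7 and 32.6 CPM in TG-High, 43.2, 98.4 and 88.3 CPM in TG-Low and 151, 108 and 151 CPM in NTG. Its log2 fold change between the lines of -1.29 ± 0.30 did not pass (edgeR adjusted p = 0.0688). All its TG-Low libraries lay below all its NTG libraries, a change that did not pass either (-0.84 ± 0.29, edgeR adjusted p = 0.163).

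Red cells and heart muscle both hold miR-486, and none of its tested rows passed. miR-486a-5p had 114, 42.0 and 70.3 CPM in TG-High and 434, 60.6 and 34.1 CPM in TG-Low, so its mean in TG-Low rested on replicate 0, the library that was lowest for miR-144 and miR-451a. The log2 fold changes were -1.22 ± 0.75 for miR-486a-5p (edgeR adjusted p = 0.679) and 0.23 ± 0.41 for miR-486a-3p (edgeR adjusted p = 0.910). Each row of miR-486b repeats the count of the opposite arm of miR-486a almost exactly. The same counts thus stand under both arm labels, and these labels do not tell the arms of miR-486 apart. Of the 7 tested erythroid rows, 2 were lower (1.18% of all tested rows were), 0 were higher and 5 did not pass, with a median log2 fold change of -1.22 against -0.02 over all tested rows. Without TG-Low replicate 0 that median was 0.68, as was the log2 fold change of miR-486a-5p. Both miR-486a rows and their miR-486b copies enter this median and the sum that follows. In the same setting miR-451a was at -1.54, and miR-451a, miR-144-3p and miR-144-5p passed as lower. The summed level of the erythroid rows was 1272 to 1759 CPM in TG-High, 2006 to 2947 CPM in TG-Low and 2741 to 3407 CPM in NTG. In bulk tissue, fewer cells of a type and less miRNA per cell cannot be told apart.

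miR-150-5p, a miRNA of mature B and T lymphocytes, had the smallest p of all rows. Its levels were 376, 354 and 386 CPM in TG-High, 777, 653 and 611 CPM in TG-Low and 733, 780 and 838 CPM in NTG. TG-Low and NTG overlapped, and TG-High lay apart from both. The level was 1.83-fold lower in TG-High than in TG-Low (log2 fold change -0.87 ± 0.13, SE, 95% interval -1.16 to -0.59, edgeR adjusted p = 0.0153). miR-150-3p, its scarce partner arm, was at 1.86 to 4.07 CPM in TG-High and 5.61 to 6.27 CPM in TG-Low, with a log2 fold change of -0.98 ± 0.29 that did not pass (edgeR adjusted p = 0.227). Other leukocyte miRNAs showed other values: miR-155-5p, a miRNA of activated immune cells, had -0.53 ± 0.15 (edgeR adjusted p = 0.199), miR-142a-3p, made by blood cells of all lineages, had 0.08 ± 0.24 (edgeR adjusted p = 0.974), and the myeloid miR-223-3p had 0.22 ± 0.20 (edgeR adjusted p = 0.805). Of the 10 tested leukocyte rows miR-150-5p alone passed, where 1.38% of all tested rows did. Among these rows miR-142b repeats the counts of miR-142a-3p, and both enter the median and the sum. The median over the 10 was -0.05, but -0.24 without TG-Low replicate 1 and 0.25 without TG-Low replicate 2. The summed leukocyte level was 1953 to 2224 CPM in TG-High and 2005 to 2885 CPM in TG-Low, which overlap.

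Both arms of miR-335 were lower in TG-High. The hairpin lies in an intron of Mest, a gene expressed from the paternal allele only, on chromosome 6 from 30741299 to 30741396, plus strand. miR-335-5p had 115, 116 and 85.9 CPM in TG-High, 219, 216 and 217 CPM in TG-Low and 319, 191 and 274 CPM in NTG. miR-335-3p had 94.0, 100.4 and 111 CPM in TG-High, 221, 176 and 147 CPM in TG-Low and 213, 200.2 and 266 CPM in NTG. In each arm every TG-High library lay below every TG-Low and NTG library, and TG-Low overlapped with NTG. The log2 fold changes between the lines were -1.04 ± 0.19 for the 5p arm (2.05-fold lower, edgeR adjusted p = 0.0254) and -0.83 ± 0.18 for the 3p arm (1.78-fold lower, edgeR adjusted p = 0.0492).

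miR-499-5p, the most abundant of the miRNAs encoded in myosin genes, was lower in TG-High. Its hairpin lies in an intron of Myh7b at positions 155622880 to 155622958 of chromosome 2, plus strand. It stood at 10941, 9887 and 13557 CPM in TG-High, 17638, 16102 and 20036 CPM in TG-Low and 21328, 19677 and 23855 CPM in NTG. The level was 1.56-fold lower in TG-High than in TG-Low, with a log2 fold change of -0.65 ± 0.14 (SE, 95% interval -0.95 to -0.34, edgeR adjusted p = 0.0492). miR-499-3p had -0.43 ± 0.26 (edgeR adjusted p = 0.679).

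The relatives of miR-499 that share its role in the myosin switch had other values. miR-208a-3p, from an intron of the adult heart myosin gene Myh6, had 2391, 2376 and 2743 CPM in TG-High, 2957, 2973 and 2874 CPM in TG-Low and 2444, 2429 and 2475 CPM in NTG. TG-High lay below TG-Low in all libraries and overlapped with NTG, and the log2 fold change between the lines of -0.23 ± 0.10 did not pass (edgeR adjusted p = 0.610). miR-208b-3p, from an intron of the fetal myosin gene Myh7, had 421, 757 and 303 CPM in TG-High, 120, 284 and 213 CPM in TG-Low and 31.4, 357 and 145 CPM in NTG. All TG-High libraries lay above all TG-Low libraries, but the spread was wide and the log2 fold change of 1.27 ± 0.65 did not pass (95% interval -0.17 to 2.70, edgeR adjusted p = 0.622). Among the 14 tested myomiR rows, where miR-1b-5p repeats the counts of miR-1a-3p, miR-499-5p alone passed, against 1.38% of all tested rows. Their median was -0.20, but -0.05 without TG-Low replicate 1 and -0.33 without TG-High replicate 2. miR-1a-3p had -0.20 (edgeR adjusted p = 0.878) and miR-133a-3p -0.01 (edgeR adjusted p = 0.992), both from the low rows described above.

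**Figure D2:**
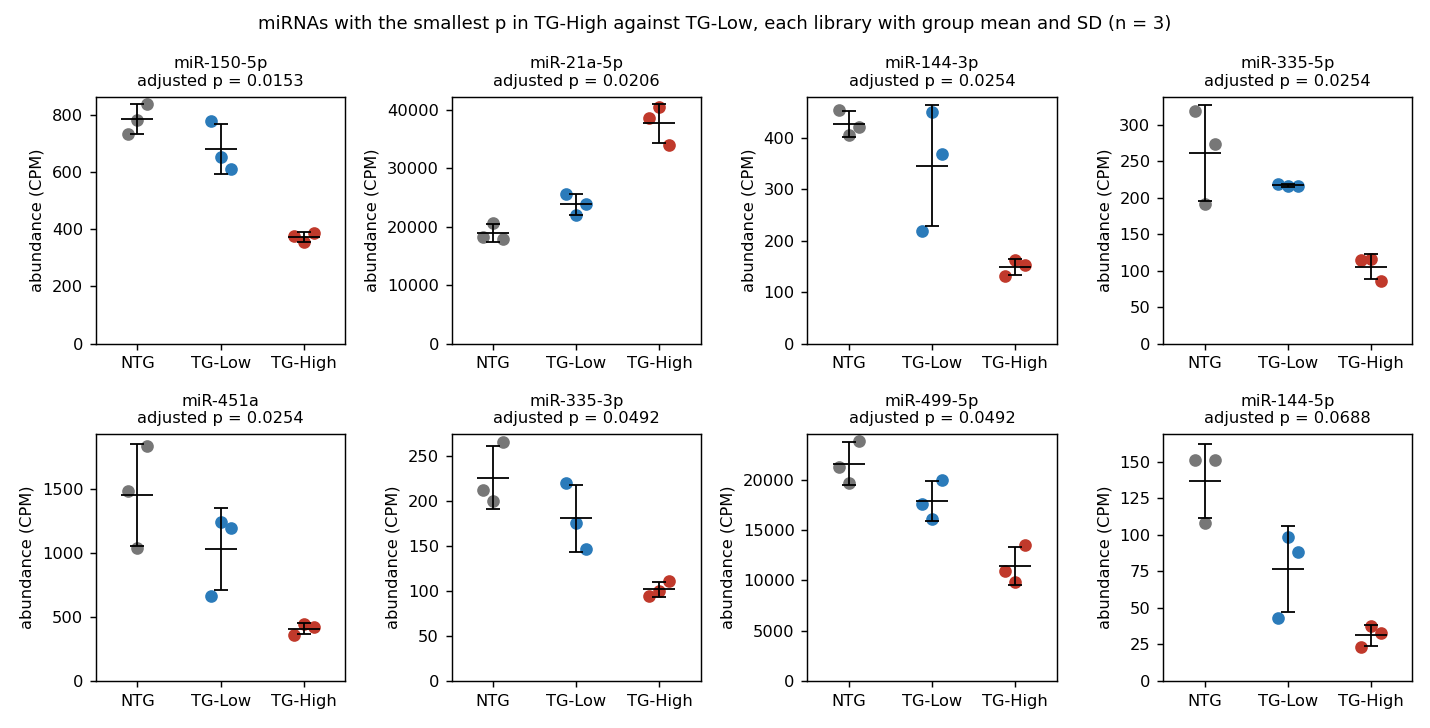
Abundance in CPM (vertical, from 0) of the 8 miRNAs with the smallest p in each library of NTG, TG-Low and TG-High, with the mean (bar) and SD (whiskers) of each group, n = 3. The TG-High points lie apart from the TG-Low points in every panel, above them for miR-21a-5p and below them for the rest, and miR-144-5p did not pass the threshold.

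Set against NTG in the same model, the 7 miRNAs each had a larger change in TG-High than in TG-Low, with TG-Low on the same side of NTG. The 7 were picked by the difference between the lines, so with TG-Low on that side the larger change in TG-High follows from the choice. The contrasts share libraries, so the values are given side by side and no overlap between them is read. miR-21a-5p had log2 fold changes against NTG of 0.99 ± 0.11 in TG-High and 0.33 ± 0.11 in TG-Low. miR-451a had -1.83 ± 0.26 and -0.50 ± 0.25, miR-144-3p -1.52 ± 0.23 and -0.30 ± 0.22, and miR-150-5p -1.08 ± 0.13 and -0.20 ± 0.13 in TG-High and TG-Low. For miR-335-5p these were -1.31 ± 0.19 and -0.27 ± 0.19, for miR-335-3p -1.15 ± 0.18 and -0.32 ± 0.18, and for miR-499-5p -0.92 ± 0.14 and -0.27 ± 0.14. In TG-High all 7 passed against NTG (edgeR adjusted p from 0.000724 to 0.00161), and in TG-Low 0 of them did (edgeR adjusted p from 0.151 to 0.473). The 7 were picked with the same TG-High and TG-Low libraries, so these counts are no separate support. The passing rows over all 509 were 18.3% in TG-High against NTG and 1.57% in TG-Low against NTG.

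Other miRNAs, whose libraries of both lines lay wholly to one side of NTG, did not pass between the lines. miR-22-3p, an abundant heart muscle miRNA, had 80101, 65836 and 82893 CPM in TG-High and 77645, 77307 and 66283 CPM in TG-Low, with 46067 to 49721 CPM in NTG. Its log2 fold change between the lines was 0.05 ± 0.11, with a 95% interval of -0.20 to 0.30 (edgeR adjusted p = 0.935). For miR-671-5p, at 50.1 to 65.1 CPM in TG-High and 30.6 to 53.1 CPM in TG-Low, it was 0.38 ± 0.21 with an interval of -0.07 to 0.84 (edgeR adjusted p = 0.622), which includes a change as large as that of miR-21a-5p. miR-361-3p, the one of these with a higher mean in TG-Low while both lines lay above NTG, had -0.27 ± 0.15 with an interval of -0.60 to 0.05 (edgeR adjusted p = 0.622). miR-215-5p, below NTG in both lines, had -0.31 ± 0.17 and an interval of -0.68 to 0.06 (edgeR adjusted p = 0.622). miR-92a-3p, of the miR-17 clusters that promote proliferation, had -0.18 ± 0.12 and an interval of -0.45 to 0.09 (edgeR adjusted p = 0.733). All its TG-High libraries (702 to 856 CPM) lay below all its TG-Low libraries (869 to 883 CPM), as in 9.04% of all tested rows. The p53-responsive miR-34c-5p had 0.38 ± 0.25 and an interval of -0.17 to 0.93 (edgeR adjusted p = 0.691).

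**Figure D3:**
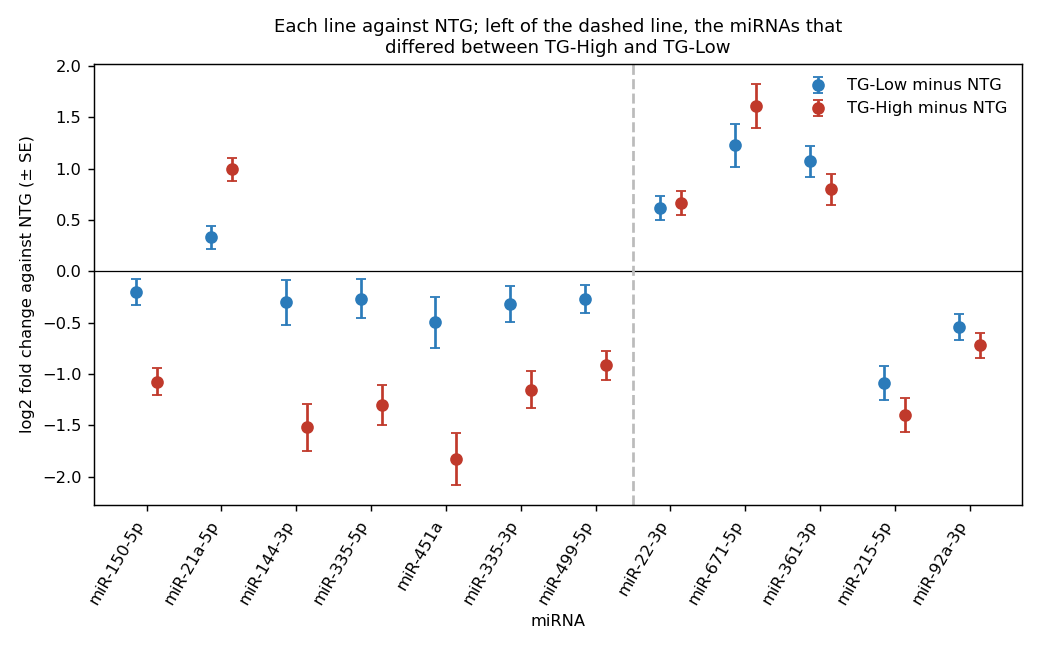
Log2 fold change against NTG (vertical, ± SE) of TG-Low (blue) and TG-High (red) for the 7 miRNAs that differed between the lines, left of the dashed line, and 5 named miRNAs that did not pass between the lines, right of it. On the left TG-Low lies closer to 0 than TG-High for each miRNA. On the right the values of the lines lie near each other. The sides were sorted by the difference between the lines, so the wider gap on the left follows from the choice.

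Several miRNAs had small unadjusted p-values but did not pass. On the higher side miR-326-3p, encoded in an intron of Arrb1, had 37.8, 32.8 and 41.0 CPM in TG-High and 21.5, 21.5 and 24.4 CPM in TG-Low, with 0.72 ± 0.19 on the log2 scale (edgeR adjusted p = 0.126). miR-342-3p, from an intron of Evl, had 193, 175 and 186 CPM in TG-High, 105, 113 and 108 CPM in TG-Low and 141, 160 and 81.5 CPM in NTG (0.77 ± 0.21, edgeR adjusted p = 0.164). Its TG-Low mean lay below that of NTG, as did those of its own 5p arm (0.89 ± 0.31, edgeR adjusted p = 0.320), miR-664-5p (0.50) and miR-1983 (0.69). The others of the 12 higher rows with the smallest p were miR-574-3p (0.46), miR-148a-3p (0.38), miR-199a-3p (0.50), miR-298-5p (0.74) and miR-455-5p (0.43), with edgeR adjusted p values from 0.248 to 0.609. miR-148a-3p was as abundant as miR-21a-5p, at 35679 to 44871 CPM in TG-High and 28724 to 34265 CPM in TG-Low.

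On the lower side miR-203-3p, a miRNA of skin and other epithelia, had 184, 166 and 147 CPM in TG-High, 306, 216 and 363 CPM in TG-Low and 287, 230 and 312 CPM in NTG (-0.83 ± 0.20, edgeR adjusted p = 0.0811). miR-200c-3p, which keeps epithelial cells from mesenchymal change, had 8.30, 9.45 and 10.4 CPM in TG-High and 27.4, 10.6 and 41.4 CPM in TG-Low, so that 1 TG-Low library nearly reached the TG-High level (-1.50 ± 0.40, edgeR adjusted p = 0.134). It shares its seed AAUACUG with miR-200b-3p, which had -1.04 on the log2 scale (edgeR adjusted p = 0.691). Other members of the epithelial and neural list went the other way. miR-182-5p (0.48) and miR-96-5p (0.53) had all TG-High libraries above all TG-Low libraries and did not pass. Of the 13 tested rows of that list, 10 were below 0 and 3 above. miR-29c-3p, which targets collagen transcripts, had -0.51 ± 0.15 (edgeR adjusted p = 0.194) at 240 to 262 CPM in TG-High and 315 to 375 CPM in TG-Low.

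**Figure D4:**
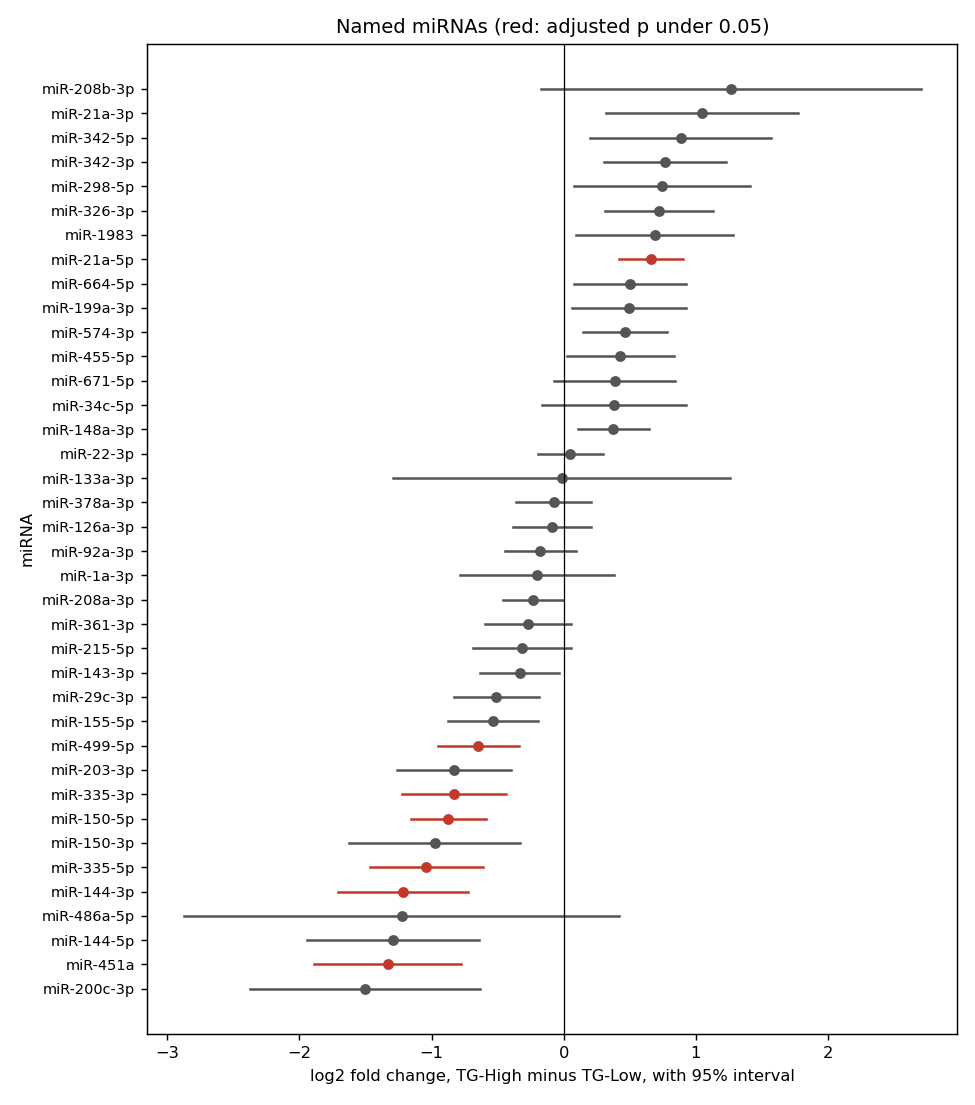
Log2 fold change of TG-High over TG-Low (horizontal) with its 95% interval for the 38 named miRNAs (vertical, ordered by value). Red intervals belong to the 7 that passed an adjusted p of 0.05; intervals of miR-208b-3p, miR-486a-5p and miR-133a-3p are the widest drawn.

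In the lists of miRNAs grouped by pathway few members passed, where 1.38% of all tested rows did. miRNAs of the heart's response to pressure overload had 27 tested rows, of which miR-21a-5p was higher and 26 did not pass (median 0.12). The matrix and fibrosis list had 28 tested rows, with the same miRNA higher, 27 not passing and a median of -0.12. Of 27 tested redox- and hypoxia-responsive rows miR-144-3p and miR-499-5p were lower (median -0.08), and of 27 rows described as targeting Nfe2l2 or Keap1 miR-144-3p was lower (median -0.07). Single libraries moved these medians: without TG-Low replicate 2 they were 0.20 for pressure overload, 0.05 for redox and hypoxia and 0.06 for Nfe2l2 or Keap1. Without TG-High replicate 1 they were 0.05 for pressure overload, -0.06 for matrix and fibrosis and -0.15 for Nfe2l2 or Keap1, and without TG-Low replicate 1 the redox and hypoxia median was -0.21. Thus 3 of the 7 passing miRNAs stand on more than 1 list, and miR-335 stands on none.

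Markers of endothelial, smooth muscle, fibroblast, epithelial, neural, liver, gut, kidney and fat cells did not pass in this comparison. In the endothelial list 0 of 12 tested rows passed, with a median of -0.21, and miR-126a-3p, among its most abundant members, had -0.09 (edgeR adjusted p = 0.894). Both miR-126b rows repeat the counts of the opposite arms of miR-126a almost exactly. The 4 tested smooth muscle rows had a median of -0.41: miR-143-3p stood at 78947 to 91633 CPM in TG-High and 87699 to 119380 CPM in TG-Low (-0.33, edgeR adjusted p = 0.524), and miR-145a-3p had -0.50 (edgeR adjusted p = 0.234). The 6 fibroblast rows had a median of 0.15, the 13 epithelial and neural rows -0.33, the 6 liver, gut and kidney rows -0.14 and the 5 adipose rows 0.19, with 0 members past the threshold in each. Without TG-Low replicate 2 the endothelial median was -0.01, the epithelial and neural median -0.03 and the adipose median 0.33. Without TG-High replicate 1 the epithelial and neural median was -0.88 and the fibroblast median 0.06, and without TG-High replicate 2 the fibroblast median was 0.32 and that of liver, gut and kidney -0.25, which was 0.0046 without TG-High replicate 0. The summed level of the smooth muscle rows was 82417 to 95706 CPM in TG-High and 91655 to 124869 CPM in TG-Low, and that of the fibroblast rows 3538 to 3931 and 3594 to 4311 CPM. The largest fibroblast row was miR-152-3p, with a mean of 2775 CPM in TG-High and 3125 CPM in TG-Low (-0.17). miR-199a-3p (0.50), miR-214-3p (0.30) and miR-214-5p (0.38) were above 0, while miR-199b-5p (-0.01) and miR-152-5p (-0.04) were below. Of these, miR-199a-3p is among the low rows described above. The part of these cell types in the differences above was not tested.

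Families and clusters had 0 members past the threshold in each case. The tested rows and medians were 50 and 0.18 for the imprinted Dlk1-Dio3 cluster, 20 and -0.00 for let-7, 18 and -0.03 for the miR-17 to miR-92 clusters, and 16 and 0.03 for the miR-15 and miR-16 family. The X-linked miR-322 cluster had 10 rows with a median of -0.04, the miR-23, miR-27 and miR-24 clusters 12 with 0.13, the p53-responsive list 12 with -0.15, and the miR-181 family 8 with -0.16. In the miR-30 family all 12 tested rows had values below 0 (from -0.38 to -0.04, median -0.20), as had the 5 tested rows of the Sfmbt2 intron cluster (median -0.47), and 6 of the 7 rows of the miR-29 family (median -0.24). The row of miR-30f repeats the counts of miR-30e-3p almost exactly, so the rows of a family are not all separate measurements. Over all tested rows 279 of 509 were below 0. In the Dlk1-Dio3 cluster 42 of 50 rows were above 0, but the summed level was 783 CPM in the lowest and 1786 CPM in the highest TG-Low library against 1590 to 1732 CPM in TG-High. Without TG-Low replicate 2 the median of this cluster was -0.04, and without TG-Low replicate 0 it was 0.42. The Sfmbt2 median was -0.07 without TG-Low replicate 2 and -0.73 without TG-Low replicate 1. Leaving out 1 library also turned the sign of the medians of the X-linked miR-322 cluster (-0.19 to 0.12), the miR-17 to miR-92 clusters (-0.21 to 0.07), the miR-15 and miR-16 family (-0.06 to 0.16) and let-7 (-0.03 to 0.04). Other medians kept their sign, between -0.30 and -0.04 for the p53-responsive list, -0.27 and -0.06 for miR-181, -0.34 and -0.13 for miR-29, -0.23 and -0.13 for miR-30, and 0.08 and 0.24 for the miR-23, miR-27 and miR-24 clusters.

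**Figure D5:**
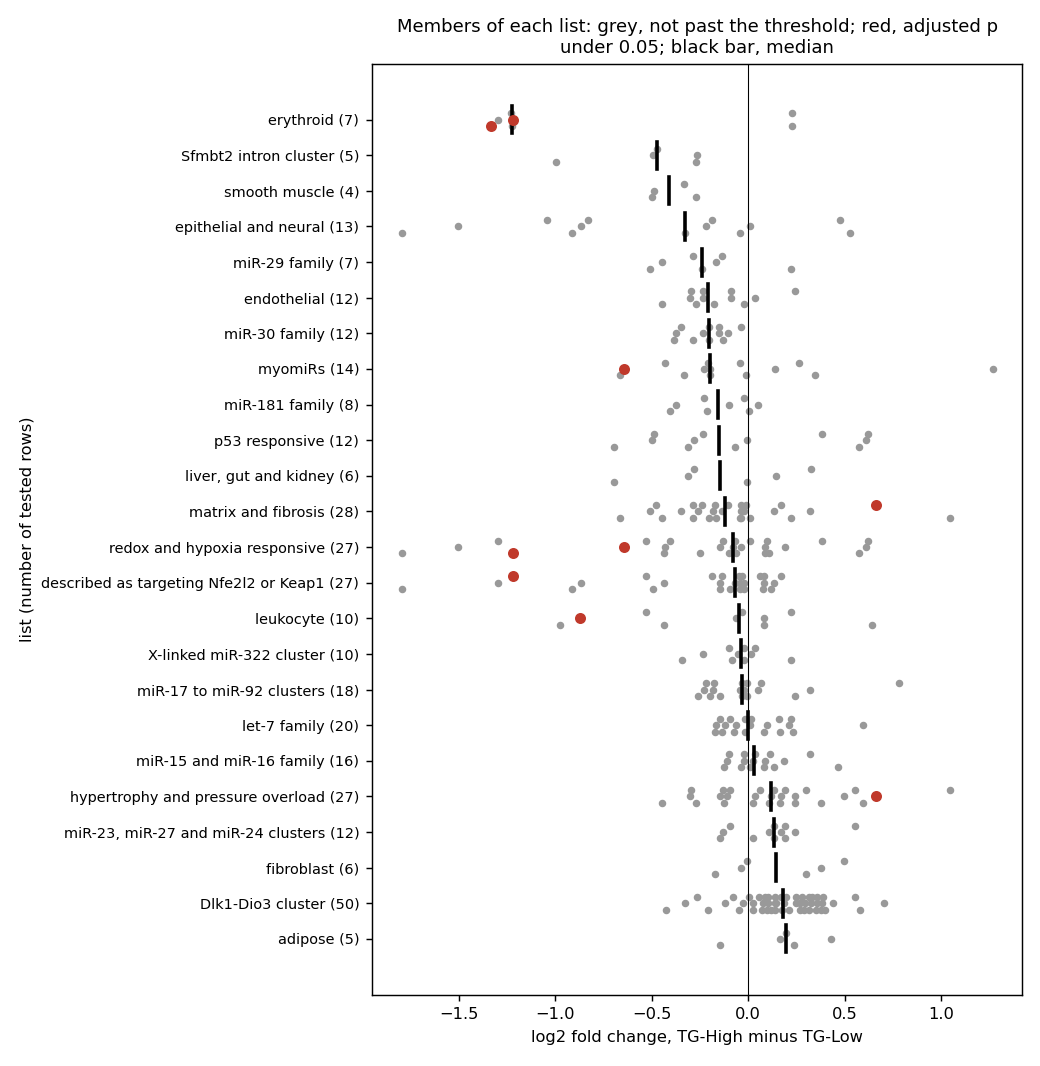
Log2 fold change of TG-High over TG-Low (horizontal) of every tested member of the 24 lists (vertical, with the number of tested rows, ordered by median). Black bars are medians, red points passed an adjusted p of 0.05 and grey points did not; a miRNA on several lists is drawn in each.

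The number of passing miRNAs changed when 1 library was left out. This also lowers the replication of a group, so a lost call does not show that the left-out library carried it. Leaving aside rows then listed at 0 throughout a line, it was 0 without TG-High replicate 0 (edgeR, 30 at an unadjusted p under 0.05), 1 without TG-High replicate 1 and 3 without TG-High replicate 2. It was 5, 4 and 3 without TG-Low replicates 0, 1 and 2, of which 4, 2 and 3 were among the 7. The log2 fold changes of the 7 kept their sign in all 16 alternative settings. Without TG-High replicate 0 their edgeR adjusted p values were 0.0784 to 0.270. miR-150-5p passed in 15 of the 16 and miR-21a-5p in 13, failing without TG-Low replicate 1, TG-High replicate 0 or TG-High replicate 1. miR-451a passed in 11, miR-144-3p, miR-335-5p and miR-499-5p in 10 each and miR-335-3p in 9.

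Rows of very low count could not be compared between the lines. Of the 112 rows that were not tested, 35 were listed at 0 in all 6 transgenic libraries, 18 more in all 3 TG-Low libraries and 6 more in all 3 TG-High libraries, and none in all NTG libraries. Rows at 0 in just 1 or 2 TG-Low libraries numbered 7. In the 18 rows at 0 in TG-Low alone the highest TG-High count was in replicate 1, the deepest library, in 14, and these rows had at most 26 counts in any TG-High library, as in miR-2137. The sources do not say whether low counts were set to 0 before deposit, so these zeros may not be measured values. No fold change is given for such rows.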

How the data were processed

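The miRNAs of 9 left ventricle libraries were given as raw counts per mature miRNA in 1 deposited table, made by the authors. Tools listed in the submitters' processing notes are Novoalign, SAMtools, Trim Galore 0.4.0, bcl2fastq 1.8.4 and DESeq2 1.18.1, with the build mm10. The labels' protocol names a TruSeq preparation. Not given in the sources used here are the annotation, the counting tool and how it treated strand and reads that match several hairpins.

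Rows were kept by edgeR's filterByExpr with a minimum count of 10, scaled by trimmed mean of M values and fitted with glmQLFit in 1 model of the 3 groups (edgeR 4.0.16, limma 3.58.1, R 4.3.3). TG-High minus TG-Low was tested with glmQLFTest, with Benjamini-Hochberg adjustment over 509 rows and a threshold of 0.05. Standard errors were the log2 fold change divided by the root of F. All 9 libraries entered, so they share 1 estimate of spread. The fit was also run on simulated counts with the same dispersion for all rows and independent libraries. Because of these settings the run does not give the error rate of the calls above. Named miRNAs are the 12 higher and 12 lower rows with the smallest p, list members past the threshold and a fixed list of heart, blood and stress miRNAs. The miRNAs and lists were chosen with earlier results of these data known. Sequences (446 of 509 rows matched) and hairpin positions are from RefSeq on GRCm38.p6, and the genes that overlap hairpins from GENCODE M21 on GRCm38. Genes annotated as miRNA were left out of these overlaps. DESeq2 1.42.0 and other settings were alternatives. Replicate numbers are not stated to mark a shared litter or day, so no pairing was used in the main fit. Deviations of same-numbered TG-Low and TG-High libraries were little correlated, which with so few libraries cannot exclude a pairing.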

Additional observations from a re-analysis of the deposited data

Results flagged for a closer look

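The effects of the lines against NTG differed by a test of the difference itself for 7 miRNAs, which is the comparison of TG-High with TG-Low in edgeR. The log2 differences were 0.66 for miR-21a-5p, -0.87 for miR-150-5p, -1.22 for miR-144-3p, -1.33 for miR-451a, -1.04 for miR-335-5p, -0.83 for miR-335-3p and -0.65 for miR-499-5p. miR-350-5p was flagged as the only 1 of 509 tested rows in which the lines lay on opposite sides of all NTG libraries. It had 13.5, 13.6 and 14.5 CPM in TG-High, 8.81, 11.7 and 12.7 CPM in TG-Low, and 13.2, 13.1 and 13.5 CPM in NTG. The lowest TG-High and the highest NTG library both round to 13.5 CPM, so TG-High was barely apart from NTG. Its log2 difference between the lines of 0.32 did not pass (edgeR adjusted p = 0.671), and TG-High exceeded NTG by less than the spread of TG-Low.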

How the results depend on the processing

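The main count was 7 miRNAs (1 higher, 6 lower). DESeq2's Wald test gave 36 (19 higher, 17 lower) and edgeR with no filter on low counts gave 25 (12 higher, 13 lower). Without rows listed at 0 throughout a group, an alternative chosen after seeing the data, DESeq2 gave 15 (4 higher, 11 lower) and edgeR with no filter 9 (1 higher, 8 lower). A fit of only the 6 transgenic libraries gave 5 (2 higher, 3 lower). The replicate block, for numbers that are not stated to pair the samples (correlations of same-numbered deviations 0.10, 0.01 and -0.10), gave 6 (1 higher, 5 lower). Leaving out 1 library at a time gave 0 to 10 in all, 0 to 5 higher and 0 to 6 lower, and 0 to 7, 0 to 2 and 0 to 6 without rows listed at 0. DESeq2 size factors, removal of the 5 most abundant rows and 1 row per near-identical group each left 7. Of 604 values of named miRNAs under the alternatives, 544 kept direction and side of the threshold, 34 lost the threshold, 15 gained it and 11 changed sign, all of miRNAs that passed in neither setting. miR-133a-3p (-0.01) was 0.20 by DESeq2, 0.021 with no filter and 0.0031 without the 5 most abundant rows, and ran from -0.87 to 0.64 with 1 library left out, above 0 without NTG replicate 2, TG-Low replicates 0 or 2 or TG-High replicates 0 or 1. With 1 library left out, miR-486a-5p (-1.22) ran from -1.66 to 0.68, above 0 without TG-Low replicate 0, miR-126a-3p (-0.09) from -0.23 to 0.11, above 0 without TG-Low replicate 2, and miR-378a-3p (-0.08) from -0.13 to 0.011, above 0 without TG-High replicate 2. Beyond the rows listed at 0, the cause of these shifts was not tested. The median SE was 0.36 for rows under 10 CPM and 0.15 for rows of at least 100 CPM.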
